A study of Mus musculus with 6 samples.

Results

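NOVA1 and NOVA2 CLIP clusters that lie in introns just downstream of exons are described here. A cluster is a group of overlapping CLIP tags, that is, unique sequenced RNA fragments recovered with the protein after ultraviolet crosslinking. Clusters were counted when most of their nucleotides were intronic on their own strand, when their midpoint was within 500 nt of an exon edge of the same gene, and when the nearest edge was a 5' splice site, the end of an exon where the intron begins. By this rule 1542 of the 46579 clusters in both lists were found. They were 215 of 9988 NOVA1 clusters (2.15%, 95% interval 1.89 to 2.46) and 1327 of 36591 NOVA2 clusters (3.63%, 3.44 to 3.82). Among intron clusters alone the shares were 5.35% (4.69 to 6.08) for NOVA1 and 4.86% (4.61 to 5.12) for NOVA2.

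The study mapped the RNA targets of both proteins in the developing cortex by HITS-CLIP. Each list came from 3 NOVA1 or 3 NOVA2 CLIP libraries of cortex from wild-type CD1 mice at embryonic day 18.5, and both proteins were assayed in the same kind of tissue without any treatment. Whole cortex was used, so the cell type behind a cluster is not known, and the lists hold no expression values by which the tissue could be checked. The tag count of a cluster was pooled over the 3 libraries of its protein, was not scaled to library size and was 10 or more in each cluster. The study calls the measure behind this minimum the peak height, and the lists do not say whether the value is a number of tags or a maximum depth. The lists held 304703 NOVA1 and 1309270 NOVA2 tags in all. No value per library was given, so differences could not be weighed against replicate spread, and no test was made. All intervals are 95% intervals that cover counting error only, and clusters or exons of the same gene are not independent of each other.

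The NOVA proteins are neuronal regulators of RNA whose KH domains recognise the sequence YCAY, where Y is C or U. They are best known as regulators of alternative splicing. The place of binding is known to matter: NOVA bound in the intron downstream of an alternative exon is generally associated with inclusion of that exon, and NOVA bound within the exon or upstream of it with skipping. Clusters next to a 5' splice site therefore mark a position at which the exon before the cluster is a candidate target of regulation, although the lists themselves hold no measure of splicing.

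Sequences of 30 nt from 14 clusters are printed below to show the motif beside exons that the results turn on. Each is the stretch of the cluster within the intron that holds the most YCAY, written 5' to 3' as RNA with every YCAY in capitals (Y is C or U, overlaps counted), with its mm9 position. The exons before these stretches in Cask, Enah, Epha5, Cacna1b, Dab1, Myo9a, Sec24c, Wnk2 and Agrn are annotated as skipped in another transcript. Those in Nova1, Ank2 (a 99-nt exon) and Tnrc18 are not. That in Vezt is a first exon, for which skipping was not called. Tug1, a long noncoding RNA, is shown as a cluster without the motif.
Cask (NOVA2, chrX:13127976-13128005, minus strand): CCAUcCCAUaaugucugcauuuuggaCCAU
Enah (NOVA2, chr1:183861254-183861283, minus strand): uuUCAUuuaaguuuuuccucuCCACcUCAU
Epha5 (NOVA2, chr5:84546237-84546266, minus strand): uguuguuCCAUucaguaaaauCCAUaUCAC
Cacna1b (NOVA2, chr2:24512150-24512179, minus strand): cCCAUCCAUCAUggccUCACaccugcUCAU
Dab1 (NOVA2, chr4:104386461-104386490, plus strand): ccUCAUgugucccgugguguccUCAUCCAC
Myo9a (NOVA1, chr9:59760421-59760450, plus strand): UCACagUCACuUCACaCCAUugugucUCAU
Sec24c (NOVA2, chr14:21504563-21504592, plus strand): cugugacuUCACcUCAUCCACCAUguCCAU
Wnk2 (NOVA2, chr13:49145766-49145795, minus strand): cccucCCACcCCAUcuUCAUCACcucUCAU
Agrn (NOVA2, chr4:155552456-155552485, minus strand): CCAUaUCACaCCAUcuCCAUuucuugUCAU
Nova1 (NOVA1, chr12:47814441-47814470, minus strand): ucUCAUcuacaCCAUacuuUCACagcgguu
Ank2 (NOVA2, chr3:126726085-126726114, minus strand): CCACaguguCCAUaucagUCAUCAUuUCAU
Tnrc18 (NOVA2, chr5:143535193-143535222, minus strand): auCCAUUCAUUCAUUCAUUCAUUCAUUCAC
Vezt (NOVA2, chr10:93497973-93498002, minus strand): ggUCAUCAUCAUCAUCAUaaUCAUCAUCAU
Tug1 (NOVA1, chr11:3548354-3548383, minus strand): uguaaucugucugcgccucaguuuccuccu
In Nova1, Enah, Myo9a, Dab1, Cacna1b, Agrn, Wnk2, Sec24c, Cask and Ank2 these stretches began 15, 22, 24, 39, 52, 53, 58, 61, 68 and 96 nt into the intron, in that order. In Tnrc18, Vezt and Epha5 they began 139, 244 and 320 nt into it. The stretches of Tnrc18 and Vezt are simple repeats of the motif, and that of Tug1 holds none.

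The clusters were most frequent shortly after the exon but seldom at the 5' splice site itself. Midpoints within 50 nt of the exon made up 5.12% of the NOVA1 and 4.07% of the NOVA2 clusters. The next 50 nt held the most, with 37 NOVA1 clusters (17.2%) and 235 NOVA2 clusters (17.7%). Counts were lower farther out, with 13 NOVA1 and 95 NOVA2 clusters between 451 and 500 nt, but did not fall at each step. NOVA1 had 21 clusters at 151 to 200 nt and 33 at 201 to 250 nt. NOVA2 had 102 at 301 to 350 nt and 111 at 401 to 450 nt. The median distance was 210 nt (184 to 235) for NOVA1 and 211 nt (198 to 221) for NOVA2, although the rule itself sets the upper end of the range. At the boundary of the rule, 33 NOVA1 and 206 NOVA2 clusters lay 400 to 500 nt from the exon, and 32 and 185 clusters of the same kind lay 500 to 600 nt from it and were not counted. Few clusters extended back into the exon, 14 NOVA1 (6.51%) and 68 NOVA2 clusters (5.12%). The Myo9a, Dab1 and Spna2 clusters given below are of this kind and cover a whole exon or part of it. The rule itself limits the number of such clusters, since it leaves out those that are mostly exonic or have their midpoint in an exon.

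**Figure D1:**
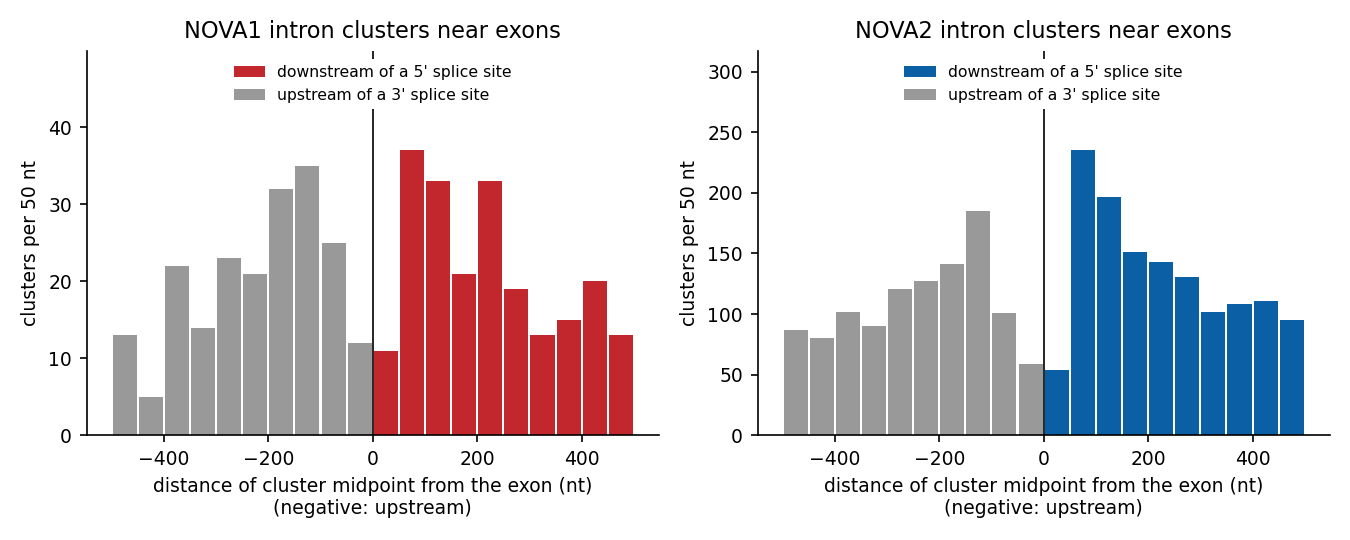
Number of intron clusters per 50 nt (vertical axis) by the distance of the cluster midpoint from the nearest exon in nt (horizontal axis, negative values upstream of a 3' splice site in grey, positive values downstream of a 5' splice site in colour) for NOVA1 on the left and NOVA2 on the right. The tallest downstream bar in both panels is that of 51 to 100 nt, with 37 NOVA1 and 235 NOVA2 clusters.

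Clusters just downstream of exons were compared with those just upstream, whose nearest edge was a 3' splice site within 500 nt. NOVA2 had 1327 downstream and 1093 upstream clusters, a ratio of 1.21 (1.12 to 1.32). The excess was mostly close to the exon, with 289 downstream and 160 upstream clusters within 100 nt (ratio 1.81, 1.49 to 2.19), 348 and 326 between 100 and 200 nt (1.07, 0.918 to 1.24), and 690 and 607 between 200 and 500 nt (1.14, 1.02 to 1.27). NOVA1 had 215 and 202 clusters, a ratio of 1.06 (0.879 to 1.29). Within 100 nt they were 48 and 37 (1.30, 0.848 to 1.99), and within 200 nt 102 and 104 (0.981, 0.747 to 1.29), so no direction can be given for NOVA1. The intervals of the proteins within 100 nt overlapped, and a difference between them was not detectable at this depth. Over all 500 nt, the NOVA2 ratio was 1.12 (0.994 to 1.25) among clusters of 20 or more tags and 1.08 (0.944 to 1.23) at 25 or more, so that the intervals then included 1. An unequal split of introns was not limited to the neighbourhood of exons. More than 1000 nt from any exon, clusters nearer to the 5' than to the 3' splice site outnumbered the others 2.26-fold for NOVA1 (1914 against 847) and 1.72-fold for NOVA2 (12462 against 7232).

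YCAY was concentrated in these clusters. It occurred 47.7 times per 1000 possible start positions in NOVA1 and 45.7 times in NOVA2 clusters, against 18.3 and 17.3 in the flanks 200 to 500 nt from either end, a fold of 2.60 (2.43 to 2.79) and 2.64 (2.56 to 2.72). Intron clusters just upstream of exons had folds of 2.60 (2.42 to 2.79) for NOVA1 and 2.49 (2.41 to 2.57) for NOVA2. In introns over 500 nt from exons they were 2.83 (2.78 to 2.87) and 2.39 (2.38 to 2.41), and in 3' UTRs 1.54 and 1.71. The order of these folds depends on the background. Against the first 500 nt of the same introns outside all clusters, the downstream folds were 2.85 (2.62 to 3.10) for NOVA1 and 2.54 (2.46 to 2.62) for NOVA2. The NOVA2 density within clusters was 45.7 downstream of exons and 44.9 in deep introns, with flanks at 17.3 and 18.8. At least 1 YCAY was present in 212 of 215 NOVA1 clusters (98.6%) and 1320 of 1327 NOVA2 clusters (99.5%), with a median of 5 per cluster. Flank windows of the same width held a YCAY in 80.2% (76.2 to 83.7) and 80.4% (78.9 to 81.9) of cases.

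The 4 forms of the motif were not equally enriched. UCAU was 4.24-fold (3.8 to 4.73) more frequent in NOVA1 clusters than in their flanks and 3.79-fold (3.62 to 3.97) in NOVA2 clusters, and was present in 87.9% and 87.3% of clusters. UCAC was enriched 2.39-fold in both lists, and CCAU 2.32-fold and 2.63-fold. CCAC was at 0.934-fold (0.753 to 1.16) in NOVA1 and 1.37-fold (1.27 to 1.48) in NOVA2 clusters. UGCAUG, the sequence bound by the RBFOX splicing regulators, was counted in the same way. It occurred in 17 NOVA1 (7.91%) and 108 NOVA2 clusters (8.14%), 2.16-fold (1.34 to 3.49) and 2.19-fold (1.80 to 2.68) more often per position than in the flanks. The words were counted on the RNA strand only, and a word is not shown to be a bound site. They were not counted separately in other intron clusters, so these folds cannot be called particular to the downstream side.

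The motif was also counted by position over the whole intron start, in clusters and outside them, after the exons with a downstream cluster and after the other exons of the same genes. In the first 25 nt after the 5' splice site, YCAY stood at 15.9 per 1000 (12.8 to 19.7) for NOVA1 and 15.8 (14.5 to 17.3) for NOVA2, against 13.5 and 13.4 after other exons. It rose to 34.3 (29.7 to 39.7) at 76 to 100 nt in the introns with NOVA1 clusters and stood between 27.7 and 29.3 from 51 to 150 nt in those with NOVA2 clusters. At 476 to 500 nt it was 20.9 and 22.1. After other exons it stayed between 15.3 and 16.5 from 26 to 475 nt in both lists. These introns were chosen for their clusters, nearly all of which hold YCAY, so the profile follows from the positions of the clusters and is a description.

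**Figure D2:**
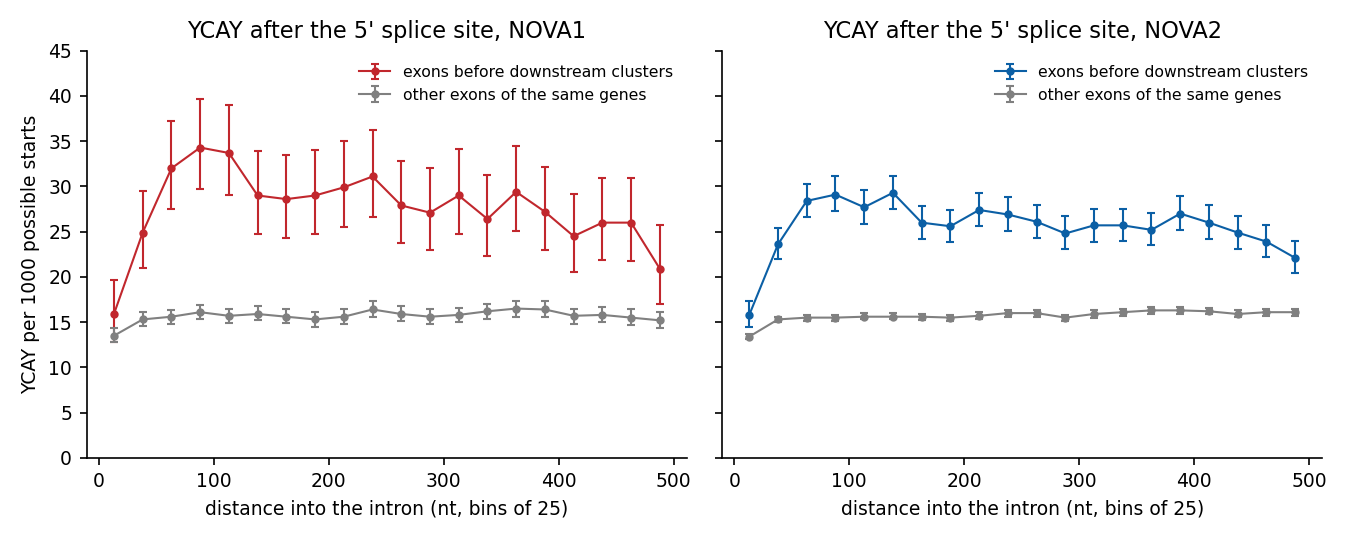
YCAY per 1000 possible starts (vertical axis) by distance into the intron in bins of 25 nt (horizontal axis) after exons with a downstream cluster (colour) and after the other exons of the same genes (grey), for NOVA1 on the left and NOVA2 on the right, with 95% intervals. Both coloured curves begin near the grey one, at 15.9 and 15.8, and lie above it from 26 nt on.

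The NOVA1 clusters followed 204 exons of 182 genes and the NOVA2 clusters 1230 exons of 966 genes. Of these, 188 exons were followed by clusters of both lists, which is 92.2% of the NOVA1 and 15.3% of the NOVA2 exons. A single cluster followed 193 of the NOVA1 exons and 1140 of the NOVA2 exons. The most clusters after an exon were 2 in the NOVA1 list and 4 in the NOVA2 list. Genes with 3 or more clusters numbered 9 for NOVA1, led by Ank2 with 4, and 75 for NOVA2, led by Nbea, Ank2 and Ptprd with 9 each and Gria2 with 8. Ank2 encodes an ankyrin that links membrane proteins to the spectrin skeleton, and Nbea the scaffold protein neurobeachin. Ptprd encodes a receptor phosphatase of synapse formation and Gria2 an AMPA receptor subunit.

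The exons before the clusters were more often alternative than their neighbours. An internal exon was called annotated as skipped where it lay wholly within an intron of another GENCODE vM1 transcript of its gene. This held for 63 of 193 internal exons before NOVA1 clusters (32.6%, 26.4 to 39.5), against 17.7% (16.5 to 18.9) of the other internal exons of the same genes. It held for 299 of 1160 internal exons before NOVA2 clusters (25.8%, 23.3 to 28.4), against 13.4% (12.9 to 13.9). The intervals did not overlap in either list. Exons before a cluster had longer introns after them, with medians of 3020 nt for NOVA1 and 2680 nt for NOVA2 against 1590 and 1660 nt after the other exons. Among exons followed by introns of 500 nt or more alone, a restriction chosen after these lengths were seen, the shares were 33.5% (27 to 40.7) against 18.1% for NOVA1 and 25.8% (23.3 to 28.4) against 13.3% for NOVA2. Using protein-coding transcripts only, they were 26.7% (21.1 to 33.2) against 14.7% and 21.7% (19.4 to 24.2) against 10.4%. The annotation is of all tissues, so a skipped exon is one with a recorded skipping transcript and not one measured to be skipped in this cortex. The call does not separate exons that are simply left out from exons that another exon replaces.

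Higher clusters and closer clusters of NOVA2 were next to skipped exons more often. The share was 21.1% (18.0 to 24.5) where the highest NOVA2 cluster of the exon had 10 to 19 tags, 30.4% (26.0 to 35.2) at 20 to 49 tags and 31.8% (25.5 to 39.0) at 50 or more. By distance it was 30.5% (25.4 to 36.1) within 100 nt and 16.5% (11.6 to 22.8) at 401 to 500 nt, with 20.8% at 201 to 300 nt and 28.8% at 301 to 400 nt between them, so that it did not fall at each step. For NOVA1 the shares lay between 28.0% and 37.8% over the distance bins, with intervals that all overlapped. Exons after an upstream cluster were skipped in 32.1% (25.5 to 39.5) of cases for NOVA1 and 27.6% (24.8 to 30.6) for NOVA2, which is within the intervals of the downstream clusters. The share of skipped exons was therefore not particular to the downstream side.

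Exon length and reading frame were compared in the same way. Exons of 27 nt or less made up 5.18% (2.84 to 9.27) of internal exons before NOVA1 clusters and 3.53% (2.62 to 4.76) of those before NOVA2 clusters, against 2.88% (2.39 to 3.46) and 1.85% (1.67 to 2.06) of the other exons. The NOVA2 intervals did not overlap and the NOVA1 intervals did. The 12-nt exons of Enah and Cacna1b, the 18-nt exon of Clasp2 and the 22-nt exon of Ank2 were among them. Of the skipped exons, 61.9% (49.6 to 72.9) before NOVA1 and 62.9% (57.3 to 68.2) before NOVA2 clusters had a length that is a multiple of 3, and so keep the reading frame when left out. In the skipped exons of the same genes without a downstream cluster it was 55.6% (51.8 to 59.4) and 51.8% (49.8 to 53.8). The difference exceeded the intervals for NOVA2 and not for NOVA1. These values were not particular to the downstream side, since exons after upstream clusters had 72.2% (59.1 to 82.4) and 68.8% (62.8 to 74.2) of skipped exons a multiple of 3, and 4.76% and 4.64% of exons at 27 nt or less. Exons at the start of a transcript were fewer, 5.39% against 9.40% for NOVA1 and 5.69% against 9.14% for NOVA2. The 5' splice sites themselves looked like the others: 98.0% in both lists began with GU, and the word GUAAGU occupied the first 6 nt of the intron in 15.7% (11.3 to 21.3) and 16.6% (14.6 to 18.8) of cases, against 15% and 15.1% of the other exons.

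Exons with NOVA2 clusters on both sides were annotated as skipped more often still. Of 43 internal exons with an upstream and a downstream NOVA2 cluster, 28 (65.1%, 50.2 to 77.6) were annotated as skipped, against 25.8% of all internal exons with a downstream cluster. Clasp2, which encodes a protein that binds growing microtubule ends, held 3 of them. Its 27-nt exon at chr9:113771554-113771580 had clusters of 40 tags upstream and 73 downstream, its 27-nt exon at chr9:113774204-113774230 had 145 and 36, and its 63-nt exon at chr9:113784383-113784445 had 45 and 167. All 3 are annotated as skipped. The heavier cluster was thus upstream of the exon at 113774204 and downstream of the other two. In Rbfox2, a splicing regulator, the 93-nt skipped exon had 17 tags upstream and 152 downstream. In Snap25, a SNARE protein of synaptic vesicle release, a 118-nt skipped exon had 69 and 20. In Mllt4, which encodes the junction protein afadin, a 21-nt skipped exon had 177 and 22, and in St7 a 69-nt skipped exon had 315 and 20. Ptprd had 2 such exons, of 42 and 19 nt, both skipped, and Fnbp1l a skipped exon of 15 nt. Sgce, Nrbp1, Mapk8ip3 and Cadps had skipped exons of 27, 24, 24 and 18 nt. The exons of Gria2, Nova1, Gad1 and Gria3 with clusters on both sides are not annotated as skipped. In the NOVA1 list there were 5 such exons, 2 in Clasp2 and 1 each in Agtpbp1, 5730419I09Rik and Nova1. Of these, 3 are annotated as skipped, those of Clasp2 and 5730419I09Rik, and those of Agtpbp1 and Nova1 are not. These exons were named after their values were seen.

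**Figure D3:**
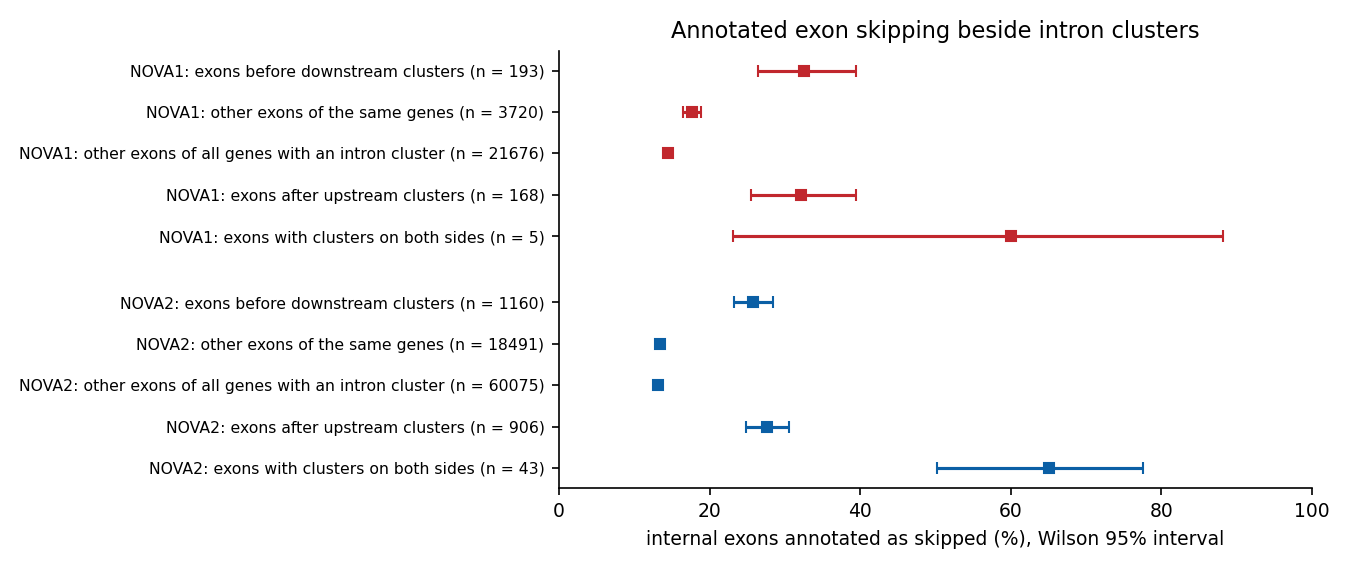
Share of internal exons annotated as skipped in percent (horizontal axis, squares, with Wilson 95% intervals) in each set of exons (vertical axis, number of exons in brackets) for NOVA1 in red and NOVA2 in blue. Exons beside clusters lie at 25.8% to 32.6%, the other exons at 13.2% to 17.7%, and the 43 exons with NOVA2 clusters on both sides at 65.1%.

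Nearly all NOVA1 clusters downstream of exons overlapped a NOVA2 cluster. This was so for 206 of 215 (95.8%, 92.2 to 97.8), beside 80.1% of all NOVA1 clusters of the list, and for 95.8% (95.1 to 96.4) of NOVA1 clusters in deep introns, so the share is that of introns in general. The reverse overlap was low, 204 of 1327 NOVA2 clusters (15.4%, 13.5 to 17.4), beside 22.1% of all NOVA2 clusters, 17.7% (15.6 to 20.1) of those upstream of exons and 13.8% (13.4 to 14.2) in deep introns. It depended on the tag count. The share was 3.07% (2.03 to 4.60) at 10 to 19 NOVA2 tags, 15.2% (12 to 19) at 20 to 49, 51.6% (42.9 to 60.3) at 50 to 99 and 76.7% (65.8 to 84.9) at 100 or more. A place with fewer than 10 NOVA1 tags, or with tags from a single NOVA1 library, is not in the lists, so most of the unshared clusters cannot be called free of NOVA1. The median tag count was 15 (14 to 16, quartiles 12 and 23) for NOVA1 and 18 (17 to 19, quartiles 13 and 32) for NOVA2, the same as in deep introns for each protein.

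**Figure D4:**
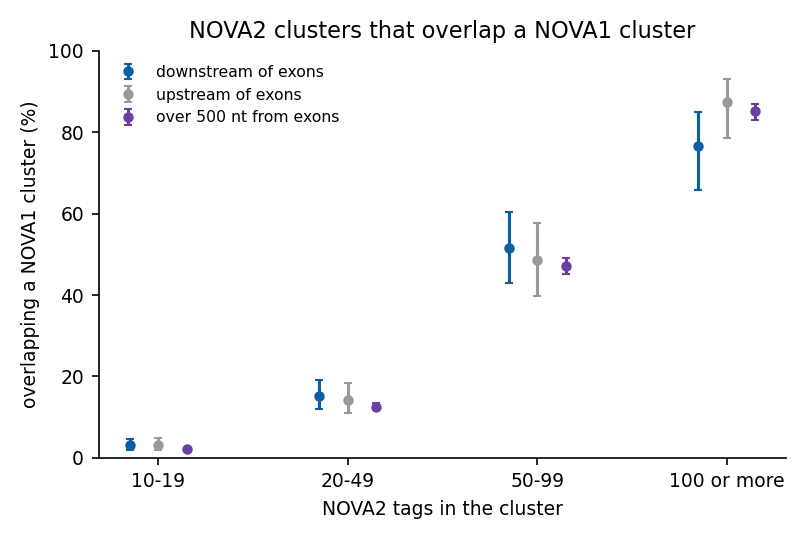
Percent of NOVA2 clusters that overlap a NOVA1 cluster (vertical axis) by the tag count of the NOVA2 cluster (horizontal axis) downstream of exons (blue), upstream of exons (grey) and over 500 nt from exons (purple), with Wilson 95% intervals. Downstream of exons the share goes from 3.07% at 10 to 19 tags to 76.7% at 100 or more.

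At 182 positions a downstream NOVA1 cluster and a downstream NOVA2 cluster overlapped one to one, each time after the same exon, with midpoints a median of 14 nt apart. The NOVA2 tag count was the higher at nearly all of them. On the log2 scale, the median of NOVA1 over NOVA2 tags was -1.85 (-2.04 to -1.70), from median counts of 15 and 59, and 3 of 182 ratios were above 0. The median was -2.00 (-2.16 to -1.84) at 168 pairs upstream of exons and -2.05 (-2.09 to -2.00) at 3060 pairs in deep introns. It was -0.40 (-0.45 to -0.35) in 3' UTRs and -0.12 (-0.24 to -0.04) in coding sequence. Since counts are not scaled to depth, the level of these ratios carries the greater depth of NOVA2, and scaling would move every class by the same amount. Downstream intron pairs therefore stood lower than pairs in 3' UTRs and coding sequence, and within the intervals of the upstream pairs.

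**Figure D5:**
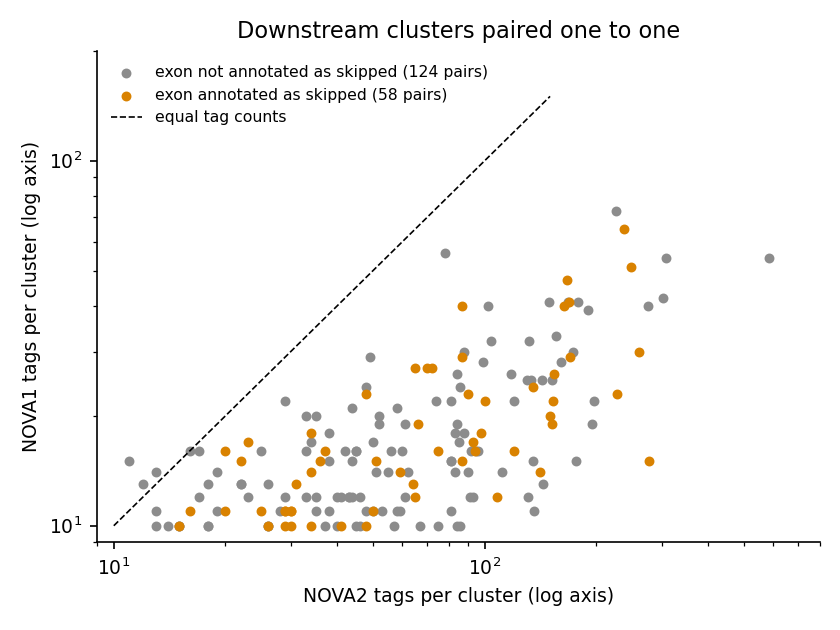
NOVA1 tags per cluster (vertical log axis) against NOVA2 tags (horizontal log axis) at the 182 one-to-one pairs of downstream clusters, with exons annotated as skipped in orange and others in grey. The dashed line marks equal counts, and 3 of the 182 pairs lie above it.

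Among the 57 pairs with 20 or more tags in each list the ratio varied widely. It was lowest in Smad4, a transducer of TGF-beta and BMP signals, with 54 NOVA1 and 585 NOVA2 tags (log2 ratio -3.44). Others among the 5 lowest were Gpbp1 with 23 and 227 (-3.30), Mtap2, the dendritic microtubule protein MAP2, with 30 and 261 (-3.12), and Clasp2 with 20 and 150 (-2.91). It was highest in Dusp11 with 22 and 29 (-0.40), Ptprz1, a receptor phosphatase of glial precursors, with 56 and 78 (-0.48), Wdr43 with 20 and 33 (-0.72), Glcci1 with 29 and 49 (-0.76) and Eif4g3, a translation initiation factor, with 20 and 35 (-0.81). The exons of Gpbp1, Mtap2 and Clasp2 are annotated as skipped, and none of the 5 at the other end is. Each of these ratios was below 0, but the counts were not scaled to the greater depth of NOVA2, so the sign shows no preference.

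Of the 8 clusters with the most tags in each list, those of Nedd4l, Smad4 and Tnrc18 were at the same places in both. Nedd4l, a ubiquitin ligase that limits membrane channels, had the highest in both, with 78 NOVA1 and 589 NOVA2 tags 406 and 363 nt after a 120-nt skipped exon. Smad4 had 54 and 585 tags after a 117-nt exon. The Tnrc18 cluster of UCAU repeats had 54 and 309. Further NOVA1 clusters near the top were Mest with 73 tags, Myo9a with 65, Mpped1 with 63, Ptprz1 with 56 and Sorbs2 with 51. The Myo9a cluster covered its 54-nt skipped exon (chr9:59760344-59760397) and had its midpoint 17 nt beyond it. Myo9a encodes an unconventional myosin and Sorbs2 an actin-linked adaptor, and the 1581-nt exon of Sorbs2 is also annotated as skipped. Further NOVA2 clusters were Lphn3, a latrophilin adhesion receptor, with 303 tags, Trim46, a protein of axonal microtubules, with 278, and Ssbp2 with 275. Nrcam, a neuronal adhesion molecule, had 272 and the kinase gene Wnk2 had 271. The 8 NOVA2 clusters with the most tags each overlapped a NOVA1 cluster.

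Without overlap in the NOVA1 list, the NOVA2 clusters with the most tags included those of D430041D05Rik (212), Sec24c (161), Trim2 (159), Nav2 (146), Mllt11 (139), Exoc6b (137) and Rbm39 (129). Sec24c encodes a coat subunit of vesicles leaving the endoplasmic reticulum, and its cluster began within a 69-nt skipped exon (chr14:21504434-21504502). Trim2 encodes a ubiquitin ligase, Nav2 a protein of neurite outgrowth and Rbm39 a splicing factor. The exon of D430041D05Rik is also annotated as skipped, and those of Trim2, Nav2, Exoc6b and Rbm39 are not. That of Mllt11 is a first exon, for which skipping was not called. Of all 73 downstream NOVA2 clusters with 100 or more tags, these included, 56 (76.7%) overlapped a NOVA1 cluster. The NOVA1 count at the places without overlap is not known, since a cluster below 10 tags or found in a single library is not listed.

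The 9 NOVA1 clusters without a NOVA2 overlap were in Bin1 (34 tags), Tug1 (27), Dlg3 (20), Rptor (18) and, with 10 tags each, Bivm, Fam49b, Camk2d, Ahcyl1 and Alg13. Most of these genes had NOVA2 clusters elsewhere: 2 in Bin1, 3 in Tug1, 6 in Dlg3, 10 each in Fam49b and Camk2d, 5 in Ahcyl1, 2 in Rptor and 1 in Bivm, but 0 in Alg13. The nearest NOVA2 cluster lay 102 nt away in Bin1, 161 nt in Camk2d, 189 nt in Dlg3 and 332 nt in Ahcyl1. The clusters of Tug1 and Ahcyl1 held 0 YCAY and that of Dlg3 held 1, against 6 in Alg13 and 7 in Fam49b. Bin1 encodes a membrane-bending protein with many splice forms, Dlg3 the synaptic scaffold SAP102, Rptor the mTORC1 subunit raptor and Camk2d a calcium-dependent kinase. The exons of Bin1, Dlg3 and Camk2d are annotated as skipped. They are 3 of 7 internal exons (42.9%, 15.8 to 75), against 32.6% (26.3 to 39.6) of those before overlapping NOVA1 clusters. The intervals overlapped.

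Of the 9 genes of axon guidance and neuronal wiring that the study examined, 6 had NOVA2 clusters just downstream of an exon, 12 clusters in all, and Epha5 alone had a NOVA1 cluster. These 12 were 4.69% of the intron clusters of the 9 genes, near the 4.86% of all NOVA2 intron clusters. Of the 12 internal exons before them, 4 (33.3%) were annotated as skipped, near the 31.9% of the other internal exons of these genes. Epha5, an ephrin receptor, had 22 NOVA1 and 153 NOVA2 tags after its 66-nt skipped exon (chr5:84546586-84546651), with midpoints 376 and 375 nt into the intron, and 3 weaker NOVA2 clusters of 11 to 15 tags after other exons. Neo1, a netrin receptor, had 60 tags 149 nt after a 137-nt exon. Robo2, a Slit receptor, had 38, 16 and 14 tags after 3 exons that are not annotated as skipped. Rock1, a kinase of the actin cytoskeleton, had 29 and 23. Agrn, the organiser of neuromuscular synapses, had 17 tags 74 nt after a 207-nt skipped exon, and the calcineurin gene Ppp3cb had 13. Dcc, Slit2 and Arhgef12 had none in either list. Dcc had 85 NOVA2 clusters elsewhere in its introns. The exons before the Neo1, Rock1 and Ppp3cb clusters are not annotated as skipped.

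Of the genes that the study linked to the corpus callosum, Dcc, Robo2, Epha5 and Slit2 are counted above with axon guidance. Of the other 5, Ank2, Enah, Cask and Dclk1 had such clusters, and Ptprs had none. These 5 genes held 14 NOVA2 clusters, 9.27% of their 151 intron clusters beside 4.86% in all genes. They held 6 NOVA1 clusters, 21.4% of 28 beside 5.35%. Ank2 alone held 9 of the 14 NOVA2 and 4 of the 6 NOVA1 clusters. In Enah, a regulator of actin filaments, 17 NOVA1 and 93 NOVA2 tags followed a 12-nt skipped exon (chr1:183861305-183861316). In Cask, a synaptic scaffold kinase, 23 and 48 tags followed a 36-nt skipped exon (chrX:13128073-13128108), and NOVA2 had 13 and 11 tags after other exons. In Ank2 a 22-nt skipped exon (chr3:126653653-126653674) was followed by 87, 18 and 41 NOVA2 tags at 234, 349 and 470 nt, with 15 and 10 NOVA1 tags at 242 and 477 nt. The highest Ank2 clusters followed exons not annotated as skipped, with 144 NOVA2 and 13 NOVA1 tags after a 99-nt exon and 108 NOVA2 tags after a 144-nt exon. Dclk1, a microtubule-associated kinase, had 30 NOVA2 tags after a 74-nt skipped exon.

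Of 10 further genes known for NOVA-regulated exons, 6 had NOVA2 and 2 had NOVA1 clusters. The 11 NOVA2 clusters were 4.66% of the 236 intron clusters of these genes, beside 4.86% in all genes. Dab1, the adaptor of reelin signalling, had 158 NOVA2 tags in a cluster that spanned a 54-nt skipped exon (chr4:104386369-104386422) and 111 tags after a 111-nt exon. The cluster of 158 tags overlapped a NOVA1 cluster that the rule did not count. Cacna1b, the N-type calcium channel, had 22 tags 91 nt after its 12-nt skipped exon (chr2:24512231-24512242) and 32, 14 and 13 after others. The cluster of 14 tags has 18 further copies in the genome, so its reads could have come from elsewhere. In Nova1 itself, the 72-nt exon at chr12:47814485-47814556 was followed by 25 NOVA1 tags, and by 11 and 25 NOVA2 tags at 40 and 146 nt. Gphn had 34 and Kcnma1 18 NOVA2 tags, and Glra2, Mapk9, Nova2 and Camk2g had none.

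Other gene groups were counted from fixed lists, some genes being in more than 1 list. The 27 splicing regulators had 11 NOVA2 clusters in 8 genes, 1.93% of their 570 intron clusters beside 4.86% in all genes. They had 4 NOVA1 clusters in 3 genes, 3.33% of 120 beside 5.35%. Rbfox2 had 19 NOVA1 and 152 NOVA2 tags after a 93-nt skipped exon and Rbfox1 had 22 NOVA2 tags after an exon of the same length, also skipped. Ptbp2, the neuronal polypyrimidine tract protein, had 19 and 11 NOVA1 and 84 and 48 NOVA2 tags after a 140-nt exon. Celf2, Elavl2 and Rod1, the gene of PTBP3, had 21, 33 and 12 NOVA2 tags after skipped exons of 41, 39 and 34 nt. In all, 5 of the 9 internal exons in this group were skipped (55.6%), against 21.1% of the other exons of these genes.

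The 24 genes of synaptic adhesion and scaffolds had 38 NOVA2 clusters in 15 genes, 2.17% of 1748 intron clusters beside 4.86% in all genes. They had 12 NOVA1 clusters in 8 genes, 3.87% of 310 beside 5.35%. For NOVA2, skipped exons were 15 of 31 (48.4%), against 18.2% of the other exons of these genes. The neurexins, presynaptic adhesion proteins with many splice forms, were among them. Nrxn2 had 3 in each list, with 41 NOVA1 and 149 NOVA2 tags after a 204-nt exon, 11 and 25 after a 30-nt skipped exon and 11 and 50 after a 62-nt skipped exon. Nrxn3 had 4 NOVA2 clusters of 11 to 87 tags. That of 50 tags also followed a 204-nt exon.

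The 25 channel and receptor genes had 32 NOVA2 clusters in 14 genes, 5.46% of 586 intron clusters beside 4.86% in all genes. They had 8 NOVA1 clusters in 5 genes, 6.78% of 118 beside 5.35%. For NOVA2, skipped exons were 8 of 25 (32.0%), against 14.5% of the other exons. Gria2 had 8 NOVA2 clusters of 11 to 161 tags, the highest after a 371-nt exon that also had 28 NOVA1 tags after it, and 41 NOVA1 tags after a 249-nt exon. Gria4 had 135 and 50 NOVA2 and 15 and 17 NOVA1 tags after a 248-nt exon, and Gria2 had 30 and 11 NOVA2 tags after an exon of the same length. Scn3a, a sodium channel of embryonic neurons, had 51, 30 and 15.

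The 18 cytoskeleton genes had 48 NOVA2 clusters in 16 genes, 14.5% of 332 intron clusters beside 4.86% in all genes, and 13 NOVA1 clusters in 7 genes, 16.7% of 78 beside 5.35%. Skipped exons were 26 of 40 (65.0%) for NOVA2, against 32.3% of the other exons of these genes, so the annotation of these genes is rich in skipped exons throughout. Clasp2 had 6 NOVA2 clusters, 5 after skipped exons, with 167, 150, 73, 36, 21 and 10 tags, and 3 NOVA1 clusters with 47, 20 and 15. Mtap2 had 261 NOVA2 and 30 NOVA1 tags after a 135-nt skipped exon. Macf1, a linker of actin and microtubules, had 190 NOVA2 and 39 NOVA1 tags after a 136-nt exon, and 5 further NOVA2 clusters of 13 to 49 tags. Spna2, the alpha spectrin gene, had 47 NOVA2 tags around a 60-nt skipped exon and 18 after a 15-nt skipped exon, and Dst, another linker, had 10 to 17 tags in 3 clusters after skipped exons. The lists were chosen with earlier results known, and nothing particular to a list is claimed from these shares.

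Some clusters were simple repeats. The clusters with the most YCAY within 30 nt were those of Gm16701 and Adam19 with 9, and those of Bin1, Vezt and Polg with 8. The Bin1, Vezt and Polg places were clusters in both lists, with 40 NOVA1 and 87 NOVA2 tags in Bin1, 18 and 83 in Vezt and 11 and 19 in Polg. Of 87 named clusters searched against the genome, 84 had no further copy of at least 90% identity over at least 50% of their length. The others were the Cacna1b cluster given above and both Gm16701 clusters, with 105 and 55 copies, where the reads could not be placed with certainty.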

How the data were processed

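Cortex of CD1 mice at embryonic day 18.5 was assayed by NOVA1 and NOVA2 HITS-CLIP, 3 libraries each. The authors aligned reads to mm9 with Novoalign (version not given in the sources used here), collapsed duplicates, pooled the libraries of a protein and retained only clusters found in 2 or more of them. The deposited values, called tag counts here, are 10 or more per cluster. The study terms its minimum of 10 tags a peak height, and the lists do not say whether the value is the number of tags or a maximum depth. Depth per library cannot be read from the lists.

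The members and gene lists were chosen with earlier results of these data known. Each cluster took the GENCODE vM1 class covering most of it on its strand (coding sequence before UTRs, noncoding exons and introns). Ties between exon edges went to the 5' splice site. Shared clusters overlapped by 1 nt or more on a strand. Named were the 8 clusters with most tags per list, the 8 NOVA2 and 5 NOVA1 clusters with most tags and no overlap, the 5 highest and 5 lowest pair ratios among pairs with 20 or more tags in each list, the 5 genes with most clusters per list, the 8 clusters with most YCAY in 30 nt, and those in fixed gene lists; from the other lists, and for exons with clusters on both sides, genes were picked after their values were seen. Older symbols (Mtap2, Spna2, Rod1) are those of the annotation. Shares carry Wilson intervals, medians order-statistic intervals and folds intervals on the log ratio of counts. Python 3.11.15, NumPy 2.4.6, pandas 2.3.3, SciPy 1.17.1, pysam 0.24.0, matplotlib 3.10.9 and BLAST+ 2.17.0 were used. The functions were checked on simulated data. Some clusters that this rule names are not reported here.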

Additional observations from a re-analysis of the deposited data

How the results depend on the processing

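Of 94 values recomputed for 15 results under other settings, 70 stayed within the interval of the value given and 24 did not. The NOVA1 downstream to upstream ratio went from 1.06 to 0.981 at 200 nt, with 1 inside both intervals. Counting up to 200 nt or 1000 nt from the exon moved the share of clusters to 1.02% or 3.32% (NOVA1) and 1.74% or 5.82% (NOVA2), the median distance to 106 or 348 nt and 106 or 375 nt, and the NOVA2 share of skipped exons to 29.5% or 23.3%, and at 200 nt the NOVA1 YCAY fold to 2.81. With 20 or more tags in both lists, the NOVA1 share of clusters was 1.86%, the median tag counts 27 and 34, the overlap of NOVA2 clusters 10.8%, their skipped exons 30.9% and their downstream to upstream ratio 1.12 (0.994 to 1.25). With 25 or more tags in the NOVA2 list, the overlaps were 82.8% and 37.4%, the NOVA2 median 43 tags and the ratio 1.08 (0.944 to 1.23). Protein-coding transcripts alone gave 21.7% skipped exons for NOVA2. Against the first 500 nt of the same introns outside all clusters, the YCAY folds were 2.85 and 2.54. No paired analysis was possible because counts were pooled over libraries, and for the same reason no library could be left out.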
